A study of Rattus norvegicus with 6 samples.

Results

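The matrix metalloproteases (MMPs), the ADAM and ADAMTS proteases, the ADAMTS-like proteins and the tissue inhibitors of metalloproteases (TIMPs) were examined in the vestibular sensory epithelium of rats. Members were the rows of the gene table whose symbol is Mmp, Adam, Adamts, Adamtsl or Timp followed by a number and at most 1 letter. Adam11, which the study names among its results, was not included. This gave 74 genes of the 32883 in the table: 22 MMPs, 25 ADAMs, 19 ADAMTS proteases, 4 ADAMTS-like genes and 4 TIMPs. Apart from Adam11, members were chosen by symbol.

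RNA came from adult male Long-Evans rats, for which the labels name no transgene or gene deletion. The control group was 3 rats on plain drinking water, and the exposed group, named IDPN-4wk, was 3 rats whose drinking water held 20 mM 3,3'-iminodipropionitrile (IDPN), a nitrile that damages inner ear hair cells, for 4 weeks. A library represents 1 rat, with the utricles and cristae of both ears combined, and all libraries carry the same batch label. The animal codes of the IDPN-4wk rats share a prefix that no control rat has, and if that prefix marks a cage or litter, its part and that of the exposure cannot be told apart.

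MMPs are zinc-dependent enzymes that cut collagens, gelatin and other parts of the extracellular matrix. ADAMs sit in the cell membrane and release the outer part of adhesion molecules, receptors and growth factor precursors, and ADAMTS proteases are secreted and cut proteoglycans or trim procollagens. TIMPs block the active site of these enzymes, and ADAMTS-like proteins resemble ADAMTS proteases but lack the protease domain and bind matrix fibres.

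Depth ranged from 13358678 to 18561991 counts per library, and the members held from 0.162% to 0.172% of them. Levels are given as CPM, read counts scaled to the TMM-normalised library size, on which 3 counts, the most that a count of 0 allows, were worth from 0.155 to 0.216 CPM. Libraries of a group were not copies of each other, with a chi-square per degree of freedom of at least 7.96 between them. The tissue was checked by marker genes. All 9 hair cell markers had counts in every library, and 5 of them were called lower in IDPN-4wk libraries, with a summed level from 2032 to 2177 CPM in control and from 1084 to 1406 CPM in IDPN-4wk libraries. Of the 6 supporting cell markers tested, 3 were called lower (Otog, Otogl and Tectb), with sums from 8131 to 8943 and from 4292 to 5526 CPM. Most of this sum was Otog, whose mean alone went from 6262 to 3199 CPM with exposure. Sox9 (log2-Fold change 0.24) and Hes1 (0.36) were higher and Slc1a3 (-0.33) was lower, all without a call. Of the 8 stroma markers, 1 was called lower (Lum) and 1 higher (Col1a1), with sums from 1013 to 1173 and from 973 to 1071 CPM. Of the 6 dark cell and melanocyte markers, 3 were called lower, with sums from 1443 to 1879 and from 896 to 1105 CPM. Of the 8 Schwann cell markers, 1 was called lower (Pmp22), with sums from 8464 to 10682 and from 5760 to 8658 CPM. Neuron markers gave 1 lower and 2 higher calls of 6 tested, with sums from 101 to 115 and from 84.9 to 89.4 CPM, and endothelium markers gave 0 of 5. The 1 skeletal muscle marker tested, Myh4, was called higher. Of the others in that list, Ckm had 0 counts in every library, and Acta1, Mylpf and Tnnt3 had at most 7 counts in a library. In such bulk samples fewer cells of a type and less RNA per cell cannot be told apart, and the part of these shifts in the results below was not tested.

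Counts in the members were very unevenly spread. Of the 74 members, 18 had no count in any library, 10 more had too few counts to be tested (at most 18 in a library and 27 in all), and 46 were tested. The untested members were 12 MMPs, 13 ADAMs and 3 ADAMTS proteases, while every ADAMTS-like gene and every TIMP was tested. Thus 12 of the 14 ADAMs known mainly from testis were not tested, and the 2 that were, Adam1a and Adam4, were not called. Mmp8, the neutrophil collagenase, had 18 counts in control replicate 3 and 0 in each of the other libraries.

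Most silent was a run of MMP genes that neighbour each other on chromosome 8. In the RefSeq gene table (build GRCr8) the 10 protein-coding genes Mmp13, Mmp12, Mmp1b, Mmp3, Mmp1, Mmp10, Mmp8, Mmp27, Mmp20 and Mmp7 follow each other with no other protein-coding gene between them. They encode collagenases, stromelysins, the macrophage elastase, matrilysin and enamelysin, many of which are switched on in inflamed or wounded tissue. Of the 10 genes, 7 had 0 counts in all libraries, which allows up to 3 counts in each, and the other 3 (Mmp13, Mmp12 and Mmp8) held 30 counts together out of 92679614. A decrease could not be detected at this depth in the 7 genes at 0, and the same bound of 3 counts limits any rise.

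The promoters of this run share a feature that the choice of members did not use. The letters TGANTCA, the binding motif of the transcription factor AP-1 (the same on both strands), were searched in the 250 bases before each gene start of the RefSeq table. They were found in 7 of these 10 promoters (70.0%), in 6.34% of all 33469 promoters in the table, and in 8 of the 59 promoters there that belong to 51 of the members (13.6%), since a few genes have several. The remaining member promoter with the motif was that of Adam19, a tested gene that was not called. The 5 called members whose promoter is in the table (Adamts2, Mmp23, Mmp28, Adamts10 and Adamtsl4) had 0 matches, and Adamts5, Mmp9, Mmp16 and Mmp17 are not in it. A match describes the letters and not a bound site. The 10 genes of the run are neighbours of the same family, so their promoters need not be independent of each other. The stretches around the motif nearest to the start are shown for the 7 genes because the motif in them (in capitals) is what these neighbouring genes share. All are on the plus strand of GRCr8.
Mmp13, chr8:12782736-12782796: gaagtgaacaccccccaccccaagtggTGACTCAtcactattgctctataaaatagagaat
Mmp12, chr8:12866538-12866598: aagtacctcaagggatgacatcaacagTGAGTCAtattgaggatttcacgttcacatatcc
Mmp3, chr8:12925183-12925243: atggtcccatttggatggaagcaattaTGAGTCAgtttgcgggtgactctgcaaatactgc
Mmp1, chr8:12943342-12943402: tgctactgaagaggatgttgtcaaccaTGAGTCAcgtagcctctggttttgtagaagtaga
Mmp10, chr8:12974619-12974679: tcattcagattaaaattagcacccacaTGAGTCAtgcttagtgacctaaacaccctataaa
Mmp20, chr8:13074156-13074216: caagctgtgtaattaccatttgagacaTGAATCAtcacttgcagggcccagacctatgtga
Mmp7, chr8:13132936-13132996: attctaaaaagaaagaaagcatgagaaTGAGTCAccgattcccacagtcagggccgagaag
In the 6 of these other than Mmp20 the motif reads TGACTCA or TGAGTCA, and in all 7 it starts between 61 and 96 bases before the gene start. Mmp1 holds a further match, TGAATCA, 242 bases before its start.

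The comparison of IDPN-4wk with control libraries asked which proteases and inhibitors change in the epithelium during subchronic exposure. Downregulated were Adamts5 and Adamts2, which cut aggrecan and procollagen, and the MMPs Mmp23, Mmp28 and Mmp16. Upregulated were Mmp17, Adamtsl4 and Adamts10, and also Mmp9, with the limit given below. A gene was called when the edgeR quasi-likelihood test gave a Benjamini-Hochberg adjusted p (Padj) under 0.05 over all 14352 genes tested and the fold change exceeded 1.5. By this rule 9 of the 46 tested members (19.6%) were called, beside 9.71% of all tested genes. Lower calls numbered 5 (10.9%) beside 6.62% of all tested genes, and higher calls 4 (8.7%) beside 3.09%. Mmp9 passed the filter on low counts only through the IDPN-4wk libraries, where it was high, so it could enter the test only by differing. Without it, 17.8% of 45 members were called, and higher calls numbered 3 (6.67%). In 21 members no IDPN-4wk library reached into the control range (45.7%), beside 37.8% of all tested genes. Of these, 15 were lower (32.6%, beside 19.3% of all tested genes) and 6 higher (13.0%, beside 18.5%). Mmp9 is still counted among the 6 higher. The median log2-Fold change was -0.20 over the tested members and 0.02 over all tested genes. No ADAM and no TIMP was called.

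**Figure D1:**
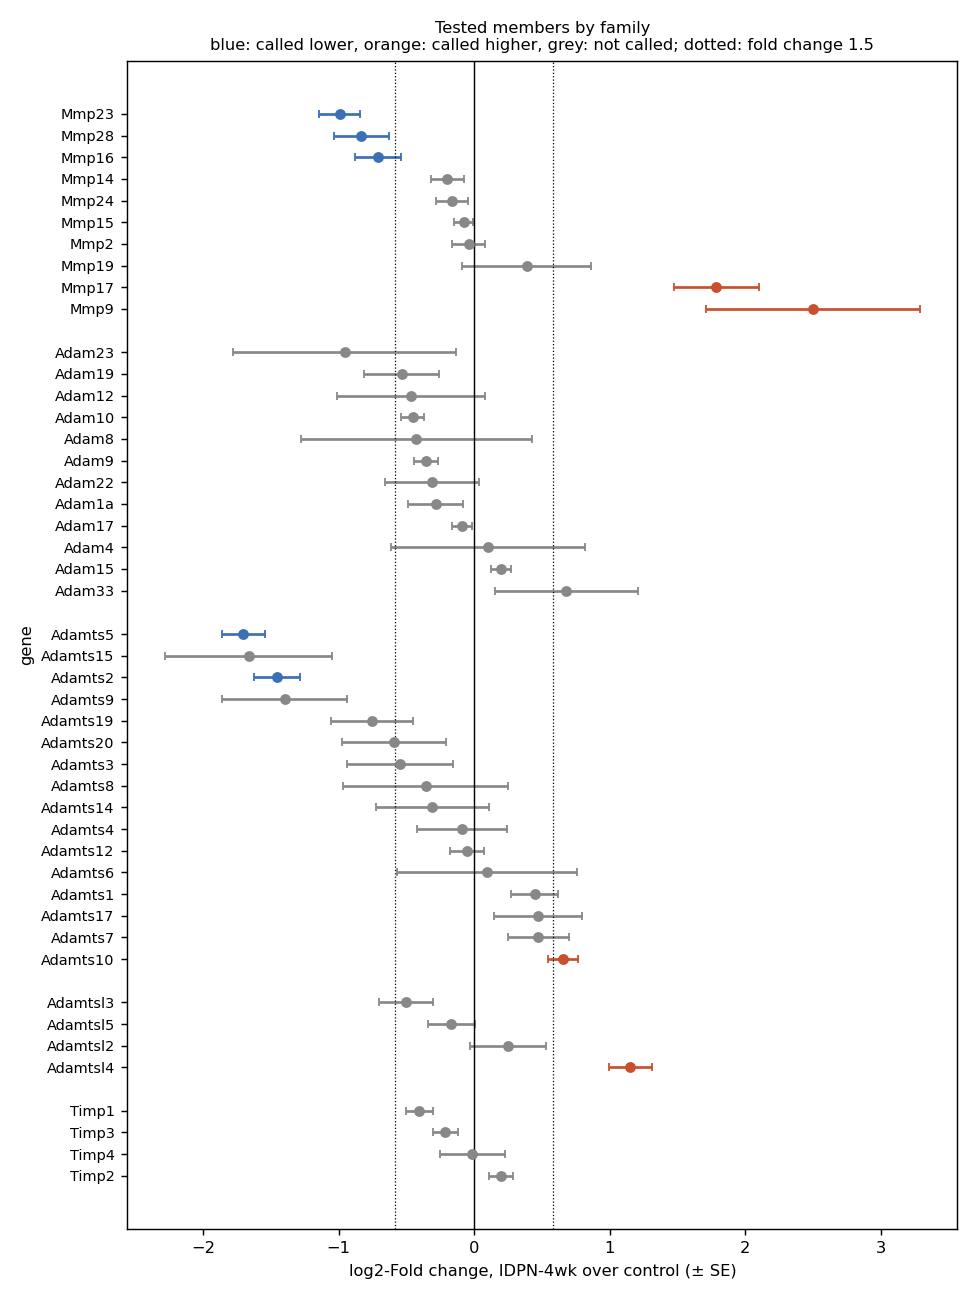
Log2-Fold change of IDPN-4wk over control (x axis, ± SE) for the 46 tested members, grouped by family from MMPs at the top to TIMPs at the bottom. The 5 blue and 4 orange points passed both thresholds, and the 12 ADAMs and 4 TIMPs are all grey.

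Among the gelatinases, which cut denatured collagen and the type IV collagen of basement membranes, Mmp9 was called higher and Mmp2 was not called. Mmp9 (ENSRNOG00000017539) was at 0.194, 0 and 0.637 CPM in the control libraries (3, 0 and 9 counts) and at 2.80, 1.19 and 0.837 CPM in the IDPN-4wk libraries (39, 23 and 13 counts). The groups did not overlap, but the lowest IDPN-4wk library was close to the highest control library. The log2-Fold change was 2.50 (SE 0.79, edgeR Padj 0.0484), in a gene that no control library would have brought past the filter on low counts. This call rested on few counts: it was lost without control replicate 1 (2.30, edgeR Padj 0.134), control replicate 2 (1.94, 0.12), IDPN-4wk replicate 1 (1.85, 0.201) or IDPN-4wk replicate 2 (2.68, 0.0776), and the log2-Fold change was 3.88 without control replicate 3. Mmp2 was at 43.2, 51.0 and 43.6 CPM in control and at 53.0, 39.3 and 42.1 CPM in IDPN-4wk libraries, and the groups overlapped (log2-Fold change -0.04, SE 0.12, edgeR Padj 0.858).

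Leukocyte markers were read beside Mmp9, which neutrophils and macrophages also make. Of 7 neutrophil markers, 1 (Csf3r) had enough counts to be tested and was not called (log2-Fold change 0.77, edgeR Padj 0.237). Cxcr2 had 0, 1 and 1 counts in control and 11, 3 and 7 counts in IDPN-4wk libraries, and S100a8, S100a9, Mpo, Elane and Retnlg had at most 13 counts in a library, each with its highest count in control replicate 3 except Mpo. The summed neutrophil level was from 0.904 to 3.04 CPM in control and from 1.81 to 3.09 CPM in IDPN-4wk libraries. Of 8 macrophage markers tested, 2 were called higher (C1qb and Lyve1) and 0 lower. By sign 6 were higher, and Csf1r (log2-Fold change -0.49) and Ptprc (-0.08) were lower. The sum of the 8 was 133, 137 and 103 CPM in control and 195, 123 and 155 CPM in IDPN-4wk libraries, with overlapping groups. Within it the mean of Lyve1 alone went from 13.6 to 41.0 CPM. The part of neutrophils and macrophages in the Mmp9 result was not tested.

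Membrane-type MMPs held most of the MMP counts and split in direction. Mmp17 (ENSRNOG00000023643), which is tied to the membrane by a lipid anchor, was at 0.904, 1.12 and 1.20 CPM in control and at 3.74, 3.15 and 4.31 CPM in IDPN-4wk libraries. All IDPN-4wk libraries were well above all controls (log2-Fold change 1.79, SE 0.31, edgeR Padj 0.00281), at a low level throughout. Mmp16 (ENSRNOG00000005708), a transmembrane member, was at 13.8, 19.0 and 13.5 CPM in control and at 8.91, 9.44 and 9.91 CPM in IDPN-4wk libraries. Again the groups did not overlap, with control replicate 2 standing above the other controls (log2-Fold change -0.71, SE 0.17, edgeR Padj 0.0144). Mmp16 was not called without control replicate 2 (-0.53, edgeR Padj 0.0583) or without IDPN-4wk replicate 1 (-0.68, 0.0509).

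The 2 most counted MMPs moved little. Mmp15 held 56.1% of all MMP counts and was at 301, 315 and 315 CPM in control and at 297, 276 and 310 CPM in IDPN-4wk libraries. The groups overlapped (log2-Fold change -0.08, SE 0.07, edgeR Padj 0.487). Mmp14, which activates the precursor of Mmp2 at the cell surface, was at 110, 149 and 135 CPM in control and at 128, 119 and 98.2 CPM in IDPN-4wk libraries, with overlapping groups (log2-Fold change -0.20, SE 0.12, edgeR Padj 0.290). Its log2-Fold change was -0.31 without control replicate 1 and -0.10 without control replicate 2, with no call in either fit. Mmp24 differed by a log2-Fold change of -0.17 (edgeR Padj 0.359).

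Both Mmp23 and Mmp28 fell. Mmp23 (ENSRNOG00000017477), which is released from the membrane by cleavage of its own anchor, was at 20.8, 16.1 and 21.4 CPM in control and at 8.91, 10.1 and 10.3 CPM in IDPN-4wk libraries. It was at 50.3% of control, without overlap (log2-Fold change -0.99, SE 0.15, edgeR Padj 0.00124). Mmp28 (ENSRNOG00000061904), or epilysin, a secreted enzyme of epithelia, was at 9.56, 8.04 and 8.28 CPM in control and at 4.10, 4.75 and 5.67 CPM in IDPN-4wk libraries. Groups did not overlap (log2-Fold change -0.83, SE 0.20, edgeR Padj 0.0157), but the call was lost without control replicate 1 (-0.75, edgeR Padj 0.0576) or IDPN-4wk replicate 1 (-0.74, 0.0582). Mmp19 varied between libraries, from 0.978 to 3.36 CPM in control and from 2.22 to 5.28 CPM in IDPN-4wk libraries, and was not called (log2-Fold change 0.39, SE 0.48, edgeR Padj 0.611).

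**Figure D2:**
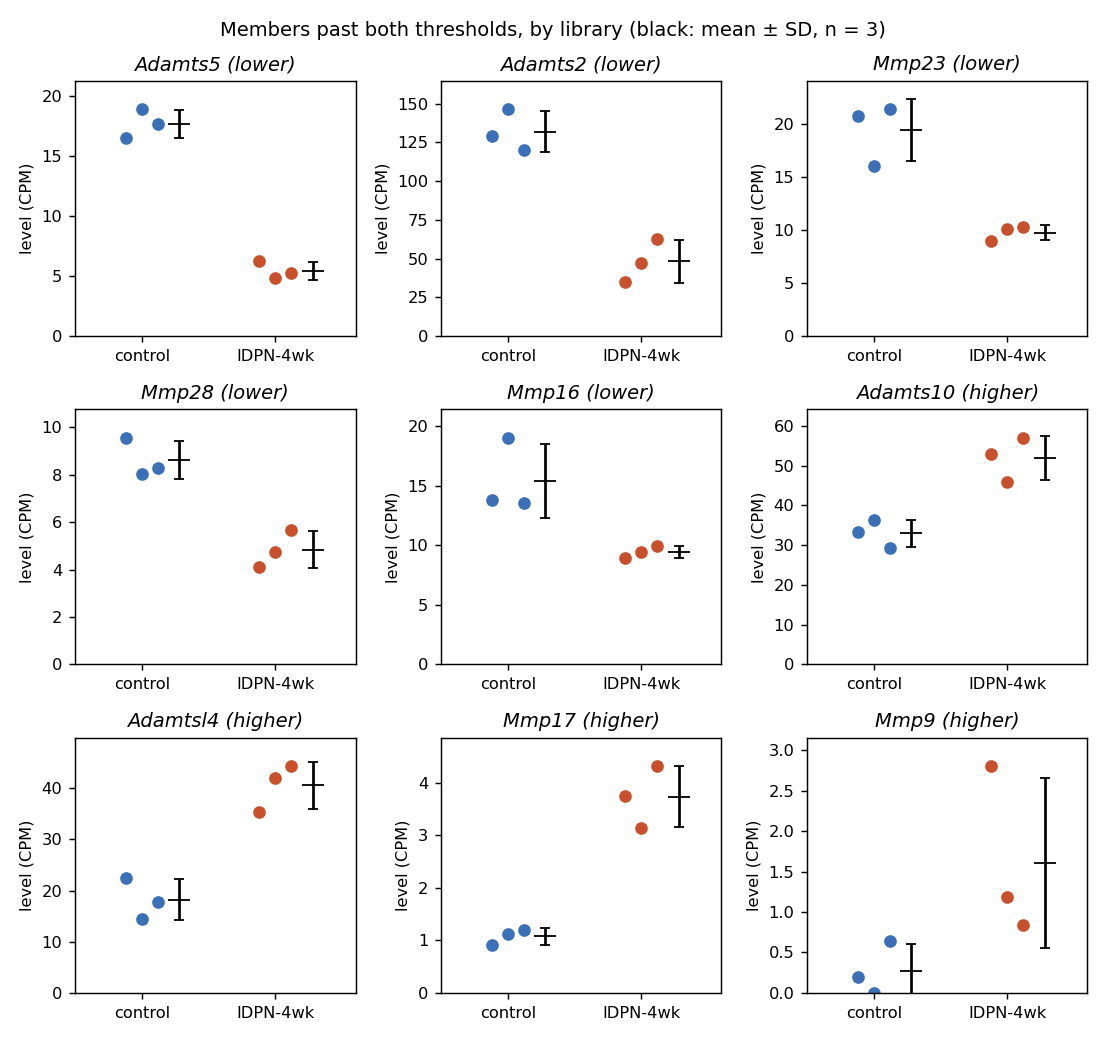
Level in CPM (y axis, from 0) of the 9 called members in each of the 3 control (blue) and 3 IDPN-4wk (orange) libraries, with mean ± SD in black. The groups are apart in all panels, widely in Adamts5, Adamts2 and Mmp17 and narrowly in Mmp9.

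Of the 3 ADAMTS proteases that trim procollagen, Adamts2 was called. It cuts the N-terminal propeptide from fibrillar procollagens and held 51.2% of the summed ADAMTS level in control and 26.5% in IDPN-4wk libraries, where Adamts10 held 28.5%. Adamts2 (ENSRNOG00000061484) was at 129, 146 and 120 CPM in control and at 34.7, 47.1 and 62.6 CPM in IDPN-4wk libraries. All IDPN-4wk libraries were well below the lowest control, with replicate 3 the highest of them (36.5% of control, a log2-Fold change of -1.45 with SE 0.17 and edgeR Padj 2.47e-04). Its relatives Adamts3 (log2-Fold change -0.55, edgeR Padj 0.365) and Adamts14 (-0.31, 0.649) had at most 3.01 CPM in a library and were not called.

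Of the 7 ADAMTS proteases that cut large proteoglycans, 1 was called. Adamts5 (ENSRNOG00000057794), a main aggrecanase of cartilage, was at 16.5, 18.9 and 17.6 CPM in control and at 6.25, 4.80 and 5.28 CPM in IDPN-4wk libraries. It was at 30.8% of control, with tight groups far apart (log2-Fold change -1.70, SE 0.16, edgeR Padj 7.39e-05). Adamts4, the other well known aggrecanase, was from 4.39 to 7.08 CPM in control and from 3.09 to 8.05 CPM in IDPN-4wk libraries and was not called (log2-Fold change -0.09, SE 0.33). The fitted values of Adamts9 (-1.40, SE 0.46, edgeR Padj 0.0576) and Adamts15 (-1.66, SE 0.62, edgeR Padj 0.0831) came from at most 41 counts in a library. Their groups did not overlap, and the decreases were not past the threshold at this depth. Adamts9 was called without IDPN-4wk replicate 3 and with limma-voom, and Adamts15 without IDPN-4wk replicate 2. Adamts1 (0.45, SE 0.17, edgeR Padj 0.0975), which cuts versican, had control replicate 1 among the IDPN-4wk values and was called without that library. Adamts20 (-0.59) and Adamts8 (-0.36) were not called.

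Of the 16 ADAMTS proteases tested, Adamts10 was the 1 called higher. Adamts10 (ENSRNOG00000008857), a protease with weak activity that binds fibrillin microfibrils, was at 33.3, 36.3 and 29.3 CPM in control and at 52.9, 45.9 and 57.0 CPM in IDPN-4wk libraries. The groups did not overlap (log2-Fold change 0.65, SE 0.11, edgeR Padj 0.00251). Its fold change was close to the threshold and fell under it without control replicate 3 (0.58) or IDPN-4wk replicate 3 (0.57). Adamts7 and Adamts12, which cut cartilage oligomeric matrix protein, had log2-Fold changes of 0.47 (edgeR Padj 0.164) and -0.05 (0.799), and Adamts19 one of -0.76 (0.108). The latter was called without control replicate 1.

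Of the 4 ADAMTS-like genes, 1 was called, Adamtsl4. It encodes a secreted glycoprotein that binds fibrillin microfibrils and held 45.5% of the summed level of its family in control and 67.8% in IDPN-4wk libraries. Adamtsl4 (ENSRNOG00000049385) was at 22.5, 14.4 and 17.8 CPM in control and at 35.4, 42.0 and 44.3 CPM in IDPN-4wk libraries. The lowest IDPN-4wk library was well above the highest control (223% of control, a log2-Fold change of 1.15 with SE 0.16 and edgeR Padj 6.38e-04). Adamtsl5 was at 7.55, 8.25 and 8.14 CPM in control and at 7.55, 6.81 and 6.95 CPM in IDPN-4wk libraries (log2-Fold change -0.17, SE 0.17, edgeR Padj 0.537). Adamtsl3 (-0.50, SE 0.20, edgeR Padj 0.104) and Adamtsl2 (0.25, 0.28, 0.576) were not called, but Adamtsl3 was called lower without IDPN-4wk replicate 3.

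Of the 8 ADAM sheddases tested, 0 were called (beside 9.71% of all tested genes). Adam10, which makes the first cut in Notch receptors and releases many adhesion molecules, was at 102, 103 and 96.2 CPM in control and at 81.4, 67.5 and 71.2 CPM in IDPN-4wk libraries. The groups did not overlap, and the edgeR Padj was 0.00421, but the change was smaller than the fold threshold (73.2% of control, log2-Fold change -0.45, SE 0.08). The same held for Adam9, at 79.7, 94.1 and 89.0 CPM in control and at 72.6, 69.5 and 63.3 CPM in IDPN-4wk libraries (log2-Fold change -0.35, SE 0.09, edgeR Padj 0.0174). Adam17, the protease that releases tumour necrosis factor, was at 66.4, 68.6 and 65.6 CPM in control and at 65.4, 61.8 and 61.7 CPM in IDPN-4wk libraries. Its log2-Fold change was -0.09 (SE 0.07, edgeR Padj 0.454).

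Adam15 had the most counts of the ADAMs, with 36.7% of their summed level in control and 45.2% in IDPN-4wk libraries. It was at 155, 171 and 158 CPM in control and at 189, 194 and 173 CPM in IDPN-4wk libraries, which did not overlap by a narrow margin (log2-Fold change 0.20, SE 0.08, edgeR Padj 0.0933). Adam19 (-0.53), Adam12 (-0.47), Adam8 (-0.42) and Adam33 (0.68) had SEs from 0.27 to 0.86 and were not called. Adam22 and Adam23, which lack protease activity and act as receptors for secreted LGI proteins of synapses, had log2-Fold changes of -0.31 (SE 0.35) and -0.95 (SE 0.82). The Adam23 libraries of both groups overlapped, since IDPN-4wk replicate 3, at 1.48 CPM, was above 2 of the controls. Without that library Adam23 was called lower.

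**Figure D3:**
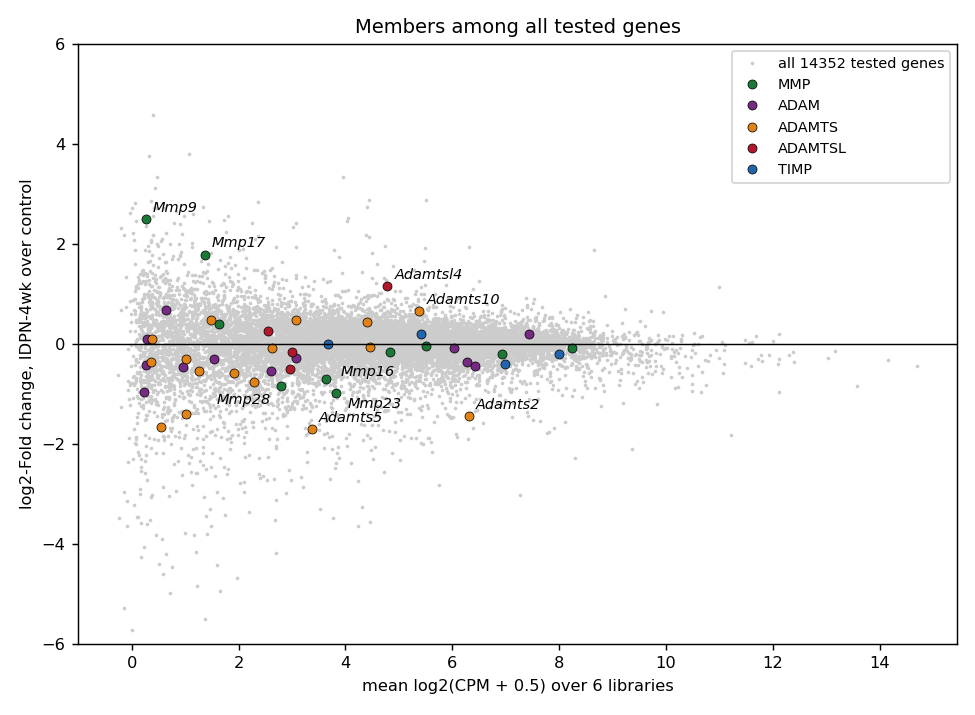
Log2-Fold change (y axis) against mean log2(CPM + 0.5) (x axis) for all 14352 tested genes in grey and the 46 members coloured by family, with called members named. The y axis leaves out 8 genes beyond 6 in size, none of them a member, and members at the left, with few counts, scatter most.

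None of the 4 TIMPs was called. Timp3, which binds to the matrix and also inhibits ADAM17 and aggrecanases, was at 312, 253 and 259 CPM in control and at 226, 248 and 237 CPM in IDPN-4wk libraries. The groups were apart only narrowly (log2-Fold change -0.21, SE 0.09, edgeR Padj 0.125). This value was -0.11 without control replicate 1 and -0.10 with library size alone. Timp1, the inducible inhibitor, was at 132, 138 and 170 CPM in control and at 114, 117 and 101 CPM in IDPN-4wk libraries. All IDPN-4wk values were lower, with an edgeR Padj of 0.0197 and a change smaller than the fold threshold (75.6% of control, log2-Fold change -0.40, SE 0.10). Timp2, which inhibits MMPs and also helps Mmp14 to activate Mmp2, was at 37.9, 37.4 and 42.4 CPM in control and at 44.6, 46.2 and 44.4 CPM in IDPN-4wk libraries (log2-Fold change 0.20, SE 0.09, edgeR Padj 0.138). Timp4 was at 13.0, 13.6 and 11.3 CPM in control and at 8.41, 11.1 and 18.0 CPM in IDPN-4wk libraries, so that exposed animals lay on both sides of the controls (log2-Fold change -0.01, SE 0.24, edgeR Padj 0.979).

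Several of these genes overlap the span of other genes in build GRCr8, and the libraries do not keep the strand. Whether such pairs share exons was not examined, and reads of a shared exon could not be assigned by strand. Among the called members, Mmp28 overlaps the protein-coding C10h17orf50 on the other strand and a long noncoding RNA, and Adamts10, Adamts2 and Mmp17 each overlap a long noncoding RNA, on the other strand for Adamts10. None of these partners was matched by symbol in the count table. Timp2 overlaps Cep295nl, which had at most 10 counts in a library. In the RefSeq table Timp1 overlaps Syn1, Timp3 overlaps Syn3 and Timp4 overlaps Syn2, the synapsin genes, which for Timp1 and Timp4 are read from the opposite strand. Syn1 was from 4.03 to 7.47 CPM over the 6 libraries and Syn3 from 2.27 to 3.22 CPM. Few reads were thus counted for these partners beside those counted for Timp1 and Timp3. Syn2 had at most 18 counts in a library. Neither Syn1 (log2-Fold change -0.15, edgeR Padj 0.772) nor Syn3 (0.02, 0.975) was called.

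Summed levels show where the reads of each family moved. The ADAMTS sum was from 238 to 277 CPM in control and from 169 to 207 CPM in IDPN-4wk libraries (70.5% of control). The mean of Adamts2 alone went from 132 to 48.1 CPM, and that of the ADAMTS sum from 258 to 182 CPM. The ADAMTS-like sum was from 36.6 to 43.2 CPM in control and from 52.8 to 67.5 CPM in IDPN-4wk libraries. These groups did not overlap under any of the scalings tried. MMP sums were from 533 to 587 CPM in control and from 494 to 533 CPM in IDPN-4wk libraries, so that the groups touched at their edges. TIMP sums were from 442 to 494 and from 394 to 422 CPM. Scaled by library size alone, the IDPN-4wk sums were 97.9% of control for MMPs and 92.4% for TIMPs, and the groups overlapped in both. The ratio of TIMP to MMP counts was 0.839 ± 0.0869 in control and 0.792 ± 0.0588 in IDPN-4wk libraries (SD, n = 3 each), a difference smaller than the spread. ADAM sums overlapped between the groups, except with DESeq2 size factors. A sum weights long genes and genes with many reads more, so it is not a count of molecules.

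**Figure D4:**
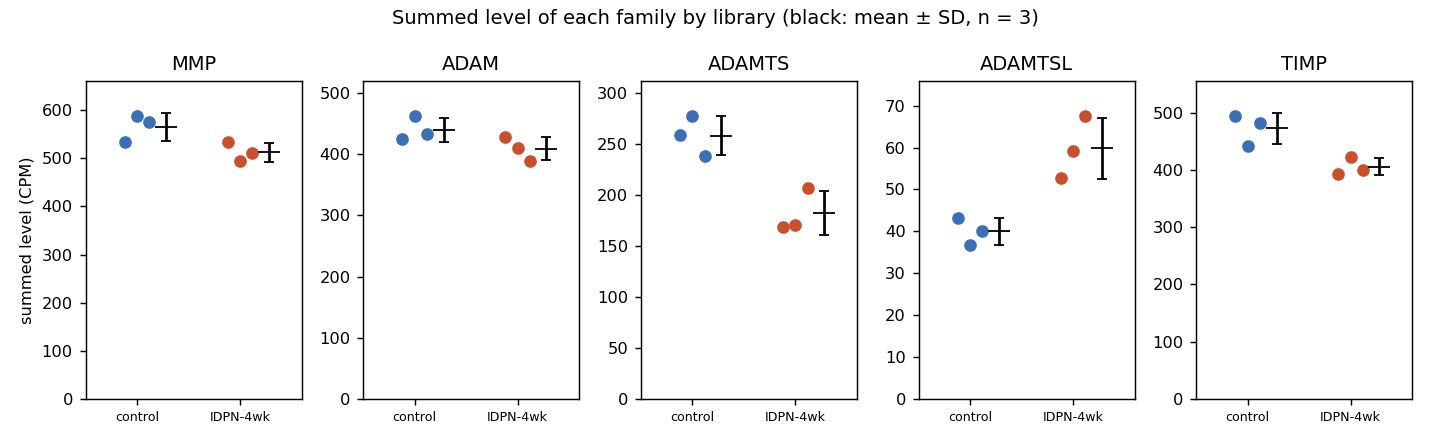
Summed level in CPM (y axis, from 0, with a scale of its own in each panel) of the 5 families in the 3 control (blue) and 3 IDPN-4wk (orange) libraries, with mean ± SD in black. The groups are apart for ADAMTS, ADAMTSL and TIMP, touch for MMP and overlap for ADAM.

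Genes that act on or beside these proteases were compared from a list of 44, of which 42 were in the table and 33 were tested. Of these 33, 6 were called lower and 2 higher, beside 6.62% and 3.09% of all tested genes, and the median log2-Fold change was -0.08.

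Among other inhibitors, 1 of 7 tested was called. Spock1, which encodes the matrix proteoglycan testican-1, was at 22.5, 26.9 and 24.3 CPM in control and at 0.431, 1.39 and 2.12 CPM in IDPN-4wk libraries. The groups were very far apart (log2-Fold change -4.19, SE 0.32, edgeR Padj 2.23e-05). Serpine2, an inhibitor of plasminogen activators and the most abundant of this list, was not called (log2-Fold change -0.26, SE 0.14, edgeR Padj 0.225). Reck, a membrane-anchored inhibitor of MMPs, had one of -0.24 (SE 0.08, edgeR Padj 0.0651).

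Among the 6 activators tested, Plau rose and Pcsk5 fell. Plau, the urokinase that makes plasmin, was at 1.81, 1.47 and 1.63 CPM in control and at 4.74, 5.98 and 5.73 CPM in IDPN-4wk libraries, without overlap (log2-Fold change 1.74, SE 0.26, edgeR Padj 0.00107). Its receptor gene Plaur had from 0 to 6 counts in control and from 9 to 42 counts in IDPN-4wk libraries and did not pass the filter. It was called in 4 of the 15 alternatives, which were the DESeq2 test, no filter on low counts, and leaving out control replicate 1 or IDPN-4wk replicate 3. Pcsk5, a proprotein convertase of the furin family, was at 76.9, 74.4 and 71.3 CPM in control and at 34.5, 32.7 and 56.5 CPM in IDPN-4wk libraries. IDPN-4wk replicate 3 was nearest to the controls (log2-Fold change -0.85, SE 0.17, edgeR Padj 0.00648). Furin itself had an edgeR Padj of 0.0240 with a change smaller than the fold threshold (0.35, SE 0.09). Bsg, an inducer of MMPs and the most abundant activator, was not called (log2-Fold change 0.08, SE 0.08, edgeR Padj 0.495).

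The substrates of the aggrecanases and the proteases that trim the other end of procollagen were also compared. Acan, the aggrecan core protein that Adamts5 cuts, was at 50.2, 47.2 and 51.4 CPM in control and at 7.05, 8.00 and 20.4 CPM in IDPN-4wk libraries. The highest exposed value stayed far below the controls (log2-Fold change -2.07, SE 0.31, edgeR Padj 0.00106), and it came from replicate 3, which was also the highest IDPN-4wk library for Adamts2 and Pcsk5. Vcan, or versican, was not called (-0.39, SE 0.14, edgeR Padj 0.0776). Of the 3 proteases tested that remove the C-terminal propeptide of procollagen, 2 were called lower. Bmp1, the one with the most counts, was at 26.1, 32.8 and 32.4 CPM in control and at 26.7, 28.2 and 31.4 CPM in IDPN-4wk libraries, with overlapping groups (log2-Fold change -0.08, SE 0.12, edgeR Padj 0.682). Tll1, a tolloid-like protease, was at 6.91, 6.36 and 4.53 CPM in control and at 2.01, 1.03 and 2.06 CPM in IDPN-4wk libraries (log2-Fold change -1.82, SE 0.32, edgeR Padj 0.00313). The rare Tll2 had from 10 to 16 counts in control and from 0 to 3 counts in IDPN-4wk libraries (log2-Fold change -2.97, SE 0.72, edgeR Padj 0.0161). It passed the filter only through the control libraries, where it was high, so without it 5 of 32 partner genes were called lower. It was called in 10 of the 15 alternative settings. Pcolce, which enhances this cleavage, was at 95.2, 75.7 and 87.8 CPM in control and at 137, 144 and 119 CPM in IDPN-4wk libraries. The groups did not overlap (log2-Fold change 0.63, SE 0.10, edgeR Padj 0.00177), but the call was lost without control replicate 2 or IDPN-4wk replicate 2.

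Of the 8 partners of Adam10 and Adam17 tested, 1 was called. Tspan15, a tetraspanin that binds Adam10, was at 32.4, 36.6 and 30.9 CPM in control and at 17.4, 19.5 and 24.8 CPM in IDPN-4wk libraries, without overlap (log2-Fold change -0.69, SE 0.14, edgeR Padj 0.00651), and was not called with library size alone. Frmd8, a partner of the Adam17 complex and the most abundant of these, differed by a log2-Fold change of 0.14 (edgeR Padj 0.241). Of the 5 EGF receptor ligands tested, 0 were called. Tgfa (-0.26, edgeR Padj 0.0405) and Egf (0.42, edgeR Padj 0.0179) passed the Padj threshold in opposite directions with changes smaller than the fold threshold.

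**Figure D5:**
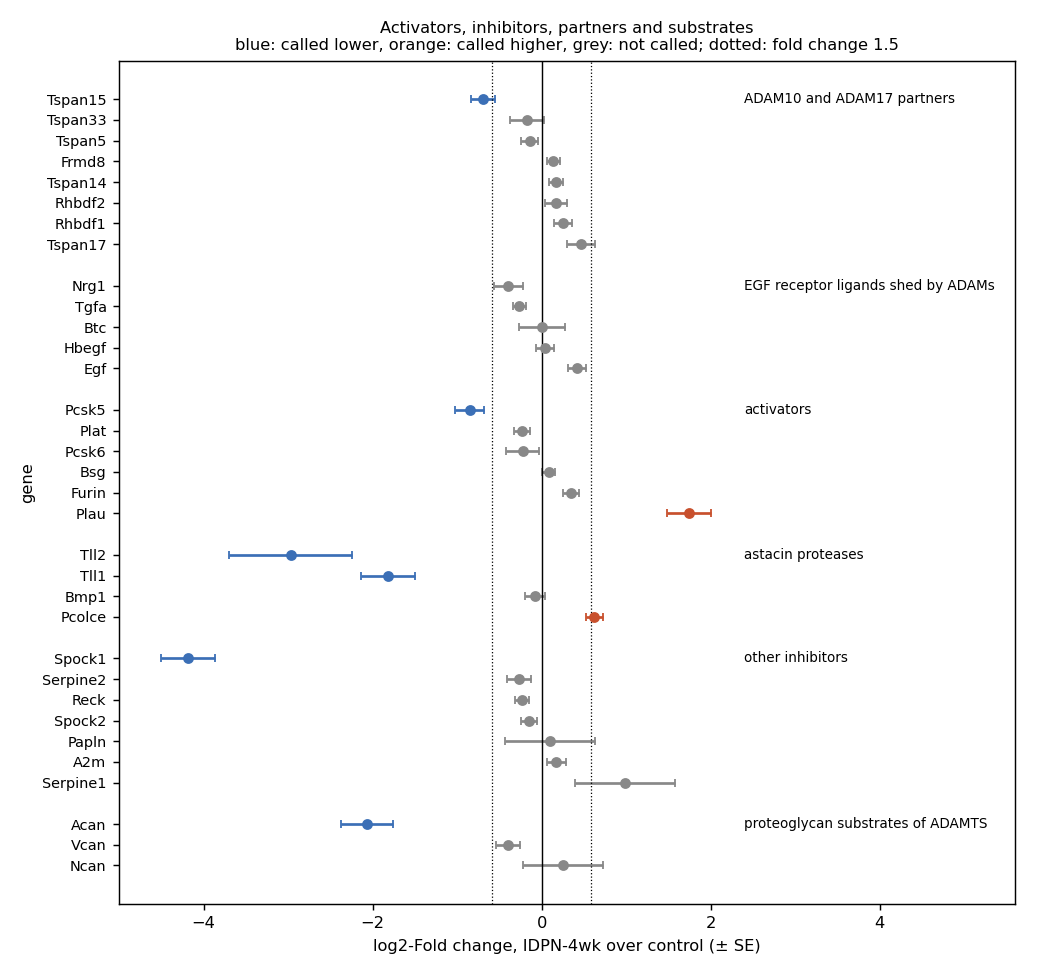
Log2-Fold change of IDPN-4wk over control (x axis, ± SE) for the 33 tested genes that activate, inhibit, assist or are cut by the proteases. Spock1, Tll2, Acan and Tll1 lie farthest to the left and Plau farthest to the right.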

How the data were processed

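The deposited table held expected counts per gene, which the authors made by mapping reads with STAR (version 2.5.3a) to Rnor6.0 and estimating gene counts with RSEM (version 1.3.0 in the submitters' processing notes; the paper's methods name another version). RSEM shares reads among similar genes, so close paralogs are uncertain, and the protocol does not keep the strand. All values were already whole (0 changed on rounding). Reads carried no molecular identifiers, so floors cover counting error only.

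Genes passing filterByExpr (minimum count 10, total 15) were tested with edgeR (version 4.0.16, R 4.3.3) by the quasi-likelihood test with TMM factors, over the 3 control and 3 IDPN-4wk libraries with no covariate. CPM used the same factors. Called genes had an adjusted p under 0.05 and a fold change over 1.5. The procedure was tested on simulated data for this comparison, where it called 96 of 100 genes changed 2-fold, 100 of 100 changed 4-fold and 3 of 14144 unchanged genes. These numbers were not split by count level. Members with few counts had SEs of up to 0.86 (Adam8), and how often a 2-fold change is called at such an SE was not tested. Libraries are separate animals, and the p-values measure the spread between them. The alternatives were DESeq2 (version 1.42.0), limma-voom (version 3.58.1), other scalings and filters, glmTreat and leaving out each library.

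Members and lists were chosen with earlier results of these data known. Full values are given for each called member, the TIMPs and the 2 most counted members of each other family. Of the listed partner genes, those called and the most abundant of each list are named. Mmp2, Adam9, Adam17 and other uncalled genes were added after their values were seen. Names, neighbours and promoters came from RefSeq tables of build GRCr8, and no coordinates of the authors' build were used. The promoter table held 59 promoters of 51 of the 74 members.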

Additional observations from a re-analysis of the deposited data

How the results depend on the processing

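Adamts2, Adamts5 and Adamtsl4 were called in all 15 alternatives and Mmp17 in all 14 that tested it. Members called lower numbered 5 in the reported fit, 8 with adjusted p alone, 2 with glmTreat against the fold threshold, and from 3 (without IDPN-4wk replicate 1, where Mmp16 and Mmp28 were lost) to 8 (without IDPN-4wk replicate 3) when 1 library was left out. Members called higher numbered 4, then 2 with a mean count of at least 50, where Mmp9 and Mmp17 were not tested, 2 with glmTreat, and from 3 to 4 without 1 library. Partner genes called lower numbered 6, then 3 with glmTreat and from 5 to 6 without 1 library. Those called higher numbered 2, then 4 with adjusted p alone, 1 with glmTreat and from 1 to 4 without 1 library. Mmp23 was lost only with glmTreat (Padj 0.0690). With library size alone the median log2-Fold change was -0.094 over the members and 0.13 over all tested genes, against -0.20 and 0.02. The share of lower calls over all genes then went from 68.1% to 50.6%, while it was 55.6% over the members under each scaling. Mmp15 was then at 0.030. Timp4 changed sign with upper quartile factors (0.020), library size alone (0.095) and in leaving out 1 library (from -0.38 to 0.19). The cause was not tested.

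No paired analysis was possible because the labels give no replicate numbers, and those used here follow accession order. At 13358678 to 18561991 counts per library, members under about 1 CPM, Mmp9 among them, rest on few reads, and a decrease in the MMP genes at 0 could not be detected.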
